A study of Bos taurus with 6 samples.

Results

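The genes described here encode the myosin of the muscle sarcomere, in longissimus thoracis, a large muscle along the back, of Japanese Black beef cattle. Of 9 listed genes, 8 had probe sets that a platform annotation table names with that symbol and no other: MYH1, MYH7, MYH3 and MYH8 for heavy chains and MYL1, MYL2, MYL3 and MYL6B for light chains. They were found by symbol and have 17 of the 24016 tested probe sets. The ninth, MYLPF, is listed in the table under its current symbol MYL11, and its 2 probe sets are shown beside the others without being counted among the 17.

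The restricted group was 3 castrated males (steers) that received no vitamin A supplement, and the supplemented group was 3 steers given 296.8 IU of vitamin A per kg body weight by mouth every week. All 6 were fattened for 7 months from an age of 13 to 14 months, on feed meant to give 1.0 kg of gain a day. Each array held the muscle RNA of a different steer, so p-values measure the spread between steers. Restricted steers were 598.3 ± 11.4 and supplemented steers 610.0 ± 9.17 days old (SD, n = 3 each). An exact permutation test, two-sided, gave p = 0.2 for age, and 3 against 3 animals cannot give a p below 0.1.

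Myosin is the motor of muscle contraction. Its heavy chains hydrolyse ATP and pull on actin, and each carries an essential and a regulatory light chain on its lever arm. Fibre types are defined by the heavy chain they make: MYH7 marks slow, oxidative type I fibres, MYH1 fast, glycolytic type IIX fibres, and MYH2 and MYH4 other fast types, while MYH3 and MYH8 belong to embryonic and perinatal muscle and to regenerating fibres. In the ARS-UCD2.0 assembly MYH8, MYH4, MYH1, MYH2 and MYH3 are neighbours and are similar in sequence, so that a probe set of 1 of them may also read another. MYH2 and MYH4 had no probe set under those symbols in the annotation and were not analysed here.

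Values are the deposited ones, on a log scale taken as log2, and the 6 arrays are almost alike in them. The median range of a tested probe set over the arrays was 6.77e-07. Differences are therefore given in millionths of a deposited log2 unit and in within-group standard deviations (SDs) of the same probe set, always as restricted minus supplemented, and none is read as a fold change. The 6 array medians differed by 8.88 millionths, and the median deviation of an array from the probe set means lay between -0.00817 and 0.0055 millionths. The tissue label was checked with 7 markers of skeletal muscle fibres, of which 6 were measured, among them ACTA1, CKM and DES. All 6 lay above 5.14, the median level of the tested probe sets, while of 3 measured heart markers NPPA lay above it and the heart troponins TNNI3 and TNNT2 below. Also above it lay 5 of 5 measured fat cell markers, 5 of 5 of connective tissue and 4 of 4 of smooth muscle and pericytes. The mean levels of these 3 lists reached at most 8.35, against 9.71 to 12.7 for muscle fibre markers.

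No myosin probe set passed the test between the diets. With limma and Benjamini-Hochberg adjustment over all 24016 probe sets, 0 of the 17 had an adjusted p under 0.05, against 1 probe set (0.00416%) in the whole table, which belongs to DHRS3, an enzyme that reduces retinaldehyde. At an unadjusted p under 0.05 there were 2 of 17, both of MYH1 and both lower in restricted steers, where 2.17% of all tested probe sets were called in that direction. Of the 17, 13 were lower and 4 higher, with a median difference of -0.47 SDs. Over all tested probe sets 51.7% were lower and the median was -0.03 SDs. Without MYH1, 7 of the remaining 9 were lower and 2 higher, none at an unadjusted p under 0.05.

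MYH1, the heavy chain of type IIX fibres, was lower in restricted steers by its brightest probe set, with no overlap between the diets but without passing the adjusted threshold. Probe set Bt.12300.1.S1_at read 11.613732, 11.613717 and 11.613722 in restricted steers 1 to 3, against 11.613758, 11.613742 and 11.613751 in supplemented steers 1 to 3. Every restricted steer was below every supplemented one, and the gap of 10.07 millionths took up 24.9% of the range over the 6 arrays. The difference was -26.7 millionths with a standard error (SE) of 5.94 and a 95% interval from -42.5 to -10.9, or -3.46 SDs (limma unadjusted p = 0.00836, adjusted p = 1, exact two-sided permutation p = 0.1).

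A second MYH1 probe set ordered the 6 steers in the same way. Bt.12300.1.S1_a_at, whose suffix marks a set that reads several transcripts of 1 gene, had 9.625263, 9.625053 and 9.625125 in restricted steers, against 9.625866, 9.625423 and 9.625523 in supplemented steers. From high to low, both sets ran supplemented steers 1, 3 and 2, then restricted steers 1, 3 and 2. The difference was -457.2 millionths (SE 139.5) or -2.53 SDs (limma unadjusted p = 0.0259, adjusted p = 1). Leaving out 1 steer gave -547.8 to -326.1 millionths, and the unadjusted p was above 0.05 without restricted steer 2 (0.0801), restricted steer 3 (0.0742) or supplemented steer 3 (0.0510). Pearson's r between both sets over the 6 steers was 0.97 and Spearman's rho 1.0 (exact permutation p = 0.00139 and 0.00278, or 0.0389 and 0.0778 when adjusted over the 28 pairs of MYH1 probe sets). The value of 0.00139 is the smallest that 6 steers allow. Without restricted steer 2 and supplemented steer 1, the farthest from the median, r was 0.997. The names of both sets share a stem, so they may read the same stretch of the transcript and are not independent measurements.

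Among the other MYH1 probe sets the diets were apart in 2 and overlapped in 4. Bt.29854.1.S1_x_at, whose suffix marks probes that also match other sequences, differed by -2.74 millionths or -1.80 SDs (limma unadjusted p = 0.0728). Its deviations from the mean were -1.73, -0.70 and -1.68 millionths in restricted steers, against 0.27, 3.76 and 0.08 millionths in supplemented steers, so supplemented steer 2 stood far above the rest. Without that steer the difference was -1.55 millionths (limma unadjusted p = 0.0250, adjusted p = 1). Bt.29854.1.A1_at differed by -0.259 millionths or -2.03 SDs (limma unadjusted p = 0.0564), but its gap between the diets was 0.004 millionths, 4 steps of the last deposited decimal. In all, 4 of 8 MYH1 probe sets were lower in restricted steers without overlap, where 4.64% of all tested probe sets were, and 0 of 8 were higher without overlap, where 4.12% of all were. These 8 share a gene and in part a stem, so their count is no count of independent measurements.

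The second brightest MYH1 probe set did not follow the brightest. Bt.12300.2.S1_at had 11.389792, 11.389819 and 11.389810 in restricted steers, against 11.389822, 11.389790 and 11.389810 in supplemented steers. Restricted steer 1 and supplemented steer 2 were lowest, and the diets overlapped fully. The difference was -0.25 millionths, with a 95% interval from -31.1 to 30.6 (limma unadjusted p = 0.984), and r with the brightest set was 0.06 (rho 0.03, exact permutation p = 0.879 and 1.0, adjusted p = 0.985 and 1.0 over the 28 pairs; r -0.04 without the 2 farthest steers). Bt.4867.2.S1_at, Bt.4867.1.A1_at and Bt.29854.1.S1_at lay below the median level, and their differences were 0.03, -0.07 and 0.0007 millionths or 0.16, -0.47 and 0.06 SDs. The 6 values of Bt.29854.1.S1_at spanned 0.029 millionths, 29 steps of the last deposited decimal.

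**Figure D1:**
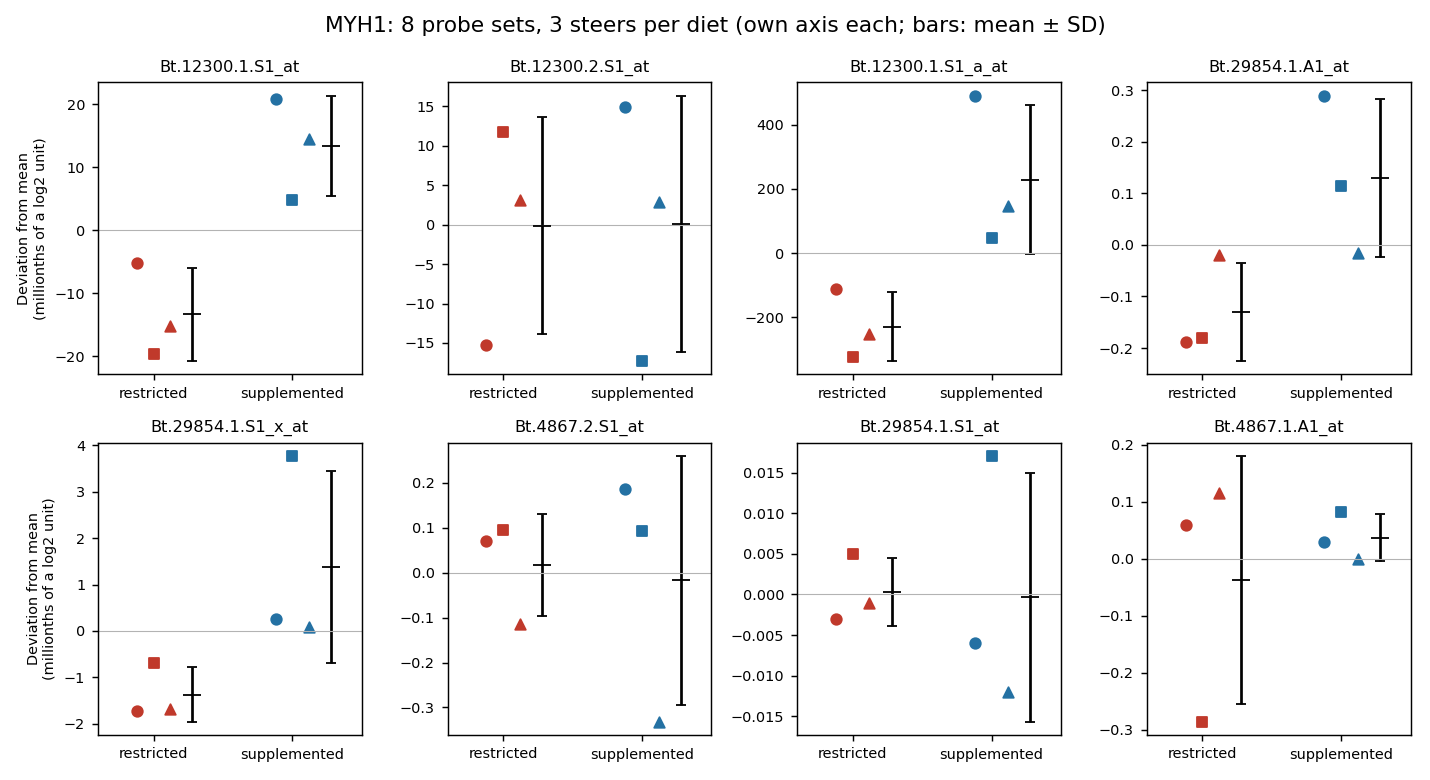
MYH1 on its 8 probe sets: each panel gives the deviation of each steer from the probe set mean in millionths of a deposited log2 unit, restricted steers (red) left of supplemented steers (blue), with the group mean ± SD in black. Circles, squares and triangles are steers 1, 2 and 3 of each diet, and each panel has its own axis. Restricted steers are all below supplemented steers in 4 panels, and the diets overlap in the other 4.

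In pieces of muscle, fewer fibres of a type and less RNA per fibre cannot be told apart. Beside the lower MYH1 values, 5 of 5 measured fat cell markers (of 6 listed) had higher means in restricted steers, though none passed the adjusted threshold. Over all tested probe sets, 51.7% were lower. Their summed levels, in which FABP4 and CIDEC have the widest ranges, ran from 30.944840 to 30.968583 in restricted and from 30.930649 to 30.959202 in supplemented steers. Over all tested probe sets, 4.12% were higher in restricted steers without overlap. In 4 of the 5 fat cell markers the diets overlapped. The exception was CFD, a complement factor secreted by fat cells, with deviations of 69.2, 84.3 and 81.6 millionths in restricted steers, against -60.9, -56.7 and -117.5 millionths in supplemented steers. It differed by 156.7 millionths or 6.35 SDs (limma unadjusted p = 0.000717, adjusted p = 1), more in SDs than any MYH1 probe set. Fat cell markers were not alone in this. Those of smooth muscle and pericytes were higher in 4 of 4 measured genes, with a median of 1.12 SDs against 0.97 SDs for fat cells. Those of endothelium were higher in 3 of 4 and those of connective tissue in 2 of 5. The part of fat cells, or of any other cells, in the MYH1 values was not tested. With age in the model the difference of the brightest MYH1 set was -31.1 millionths (limma unadjusted p = 0.0161, adjusted p = 1). Without any 1 steer it ran from -30.9 to -23.0 millionths. After quantile normalization the diet means of the brightest MYH1 set, and of Bt.12300.1.S1_a_at, were equal. Equal means were left for 17115 probe sets among the 24016, and this scaling could not test the diet difference of either MYH1 set.

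MYH7, the slow heavy chain, showed no common direction between the diets. Its brightest probe set Bt.6620.1.S1_at read 11.141582, 11.141069 and 11.141201 in restricted steers, against 11.141051, 11.141170 and 11.141496 in supplemented steers. Restricted steer 1 and supplemented steer 3 were high and the other 4 lower, so the spread lay within the diets. The difference was 45.2 millionths (SE 192.1) or 0.18 SDs, with a 95% interval from -466.2 to 556.5 (limma unadjusted p = 0.824). Bt.28390.1.S1_at read 7.560061, 7.560132 and 7.560358 in restricted steers, against 7.560031, 7.560283 and 7.560544 in supplemented steers, and differed by -102.5 millionths or -0.48 SDs (limma unadjusted p = 0.561). Both sets had a high supplemented steer 3, but restricted steer 1 was the highest of all in the first and the second lowest in the second. Over the 6 steers r between them was 0.31 (rho 0.43, exact permutation p = 0.536 and 0.419, adjusted p = 0.608 and 0.629 over the 3 pairs of MYH7 sets), and r was 0.98 without restricted steer 1 and supplemented steer 3. The third set, Bt.28390.2.A1_at, lay below the median level and differed by -0.05 millionths or -0.29 SDs.

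The developmental heavy chains MYH3 and MYH8 have 1 probe set each, and both lay below the median level of the table. MYH3, the embryonic chain, had deviations of 0.129, -0.044 and -0.177 millionths in restricted steers, against 0.090, -0.005 and 0.006 millionths in supplemented steers. The restricted steers held both the highest and the lowest value. Its difference was -0.061 millionths or -0.53 SDs (limma unadjusted p = 0.538). MYH8, the perinatal chain, had deviations of -0.51, 0.16 and -0.03 millionths in restricted steers, against 0.59, -0.80 and 0.60 millionths in supplemented steers. Here supplemented steers held both ends, and the difference was -0.258 millionths or -0.42 SDs (limma unadjusted p = 0.616). Leaving out 1 steer gave -0.724 millionths without supplemented steer 2 (limma unadjusted p = 0.0478) and -0.0237 millionths without supplemented steer 3. Detection calls were not used here, so whether either transcript was above background was not determined.

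**Figure D2:**
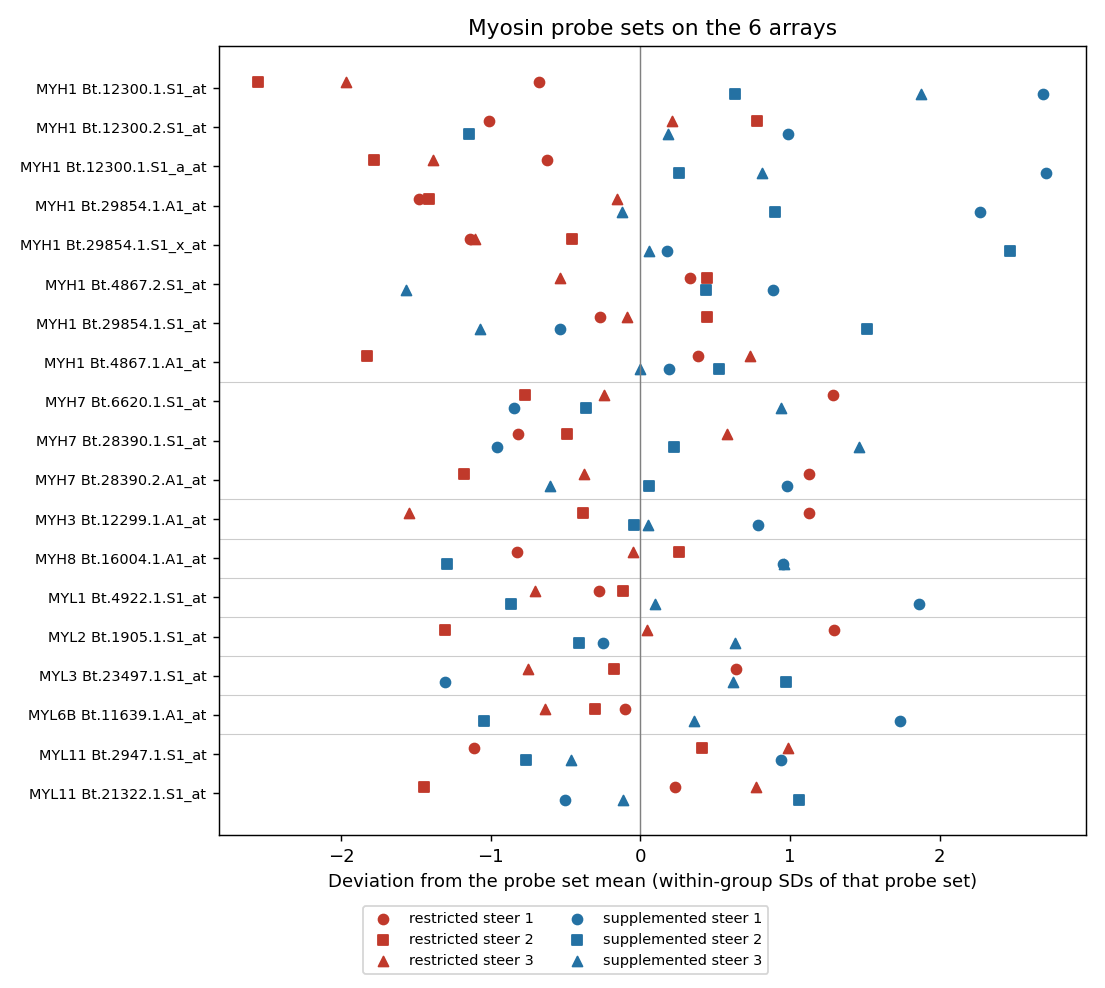
Every myosin probe set on the 6 arrays: the horizontal axis gives each steer's deviation from the probe set mean in within-group SDs of that probe set, with restricted steers in red above supplemented steers in blue. Symbols mark steers 1, 2 and 3 of each diet. The colours separate in 4 MYH1 rows and overlap in the other 4 MYH1 rows and in all rows of the other genes.

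Of the fast light chains, MYL1 and the brighter MYL11 probe set spanned 0.51 and 0.84 millionths over the steers. The median range of all tested probe sets was 0.677 millionths. MYL1, the essential light chain of fast fibres, had deviations of -0.05, -0.02 and -0.13 millionths in restricted steers, against 0.35, -0.16 and 0.02 millionths in supplemented steers. Supplemented steer 1 stood above the other 5, and supplemented steer 2 was lowest. The difference was -0.137 millionths or -0.73 SDs (limma unadjusted p = 0.398). MYL11, the regulatory light chain of fast fibres, had deviations of -0.45, 0.17 and 0.40 millionths in restricted steers, against 0.38, -0.31 and -0.19 millionths in supplemented steers on its brighter set Bt.2947.1.S1_at, with a difference of 0.077 millionths or 0.19 SDs. The diets overlapped. The dimmer set Bt.21322.1.S1_at spanned 53.5 millionths over the steers and, at -6.28 millionths or -0.29 SDs between the diets, did not follow the brighter one (r -0.32, rho -0.26, exact permutation p = 0.533 and 0.658, the only pair of this gene; r -0.74 without restricted steers 1 and 3).

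The slow light chains had wider ranges in deposited units, and these ranges lay within the diets. MYL2, the regulatory light chain of slow fibres and of the heart ventricle, read 11.903185, 11.903093 and 11.903141 in restricted steers, against 11.903130, 11.903125 and 11.903161 in supplemented steers. Restricted steers 1 and 2 were the highest and the lowest of all 6. The difference was 0.737 millionths (SE 27.2) or 0.02 SDs (limma unadjusted p = 0.980). MYL3, the essential light chain of slow fibres and of the ventricle, read 7.57329, 7.56359 and 7.55679 in restricted steers, against 7.55022, 7.57726 and 7.57306 in supplemented steers. Supplemented steer 1 was lowest and supplemented steer 2 highest, with all restricted steers between them. The difference was -2288 millionths (SE 9133) or -0.19 SDs, with a 95% interval from -26602 to 22027 (limma unadjusted p = 0.813).

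MYL6B, an essential light chain made in slow muscle and in cells outside muscle, had deviations of -0.85, -2.48 and -5.17 millionths in restricted steers, against 14.04, -8.46 and 2.91 millionths in supplemented steers. The restricted steers lay close together, between supplemented steers 2 and 3. Their SD was 2.18 millionths, against 11.3 millionths in supplemented steers, and the difference was -5.66 millionths or -0.70 SDs (limma unadjusted p = 0.411). It was -0.0517 millionths without supplemented steer 1 and -11.3 millionths without supplemented steer 2. The difference in spread was not tested.

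**Figure D3:**
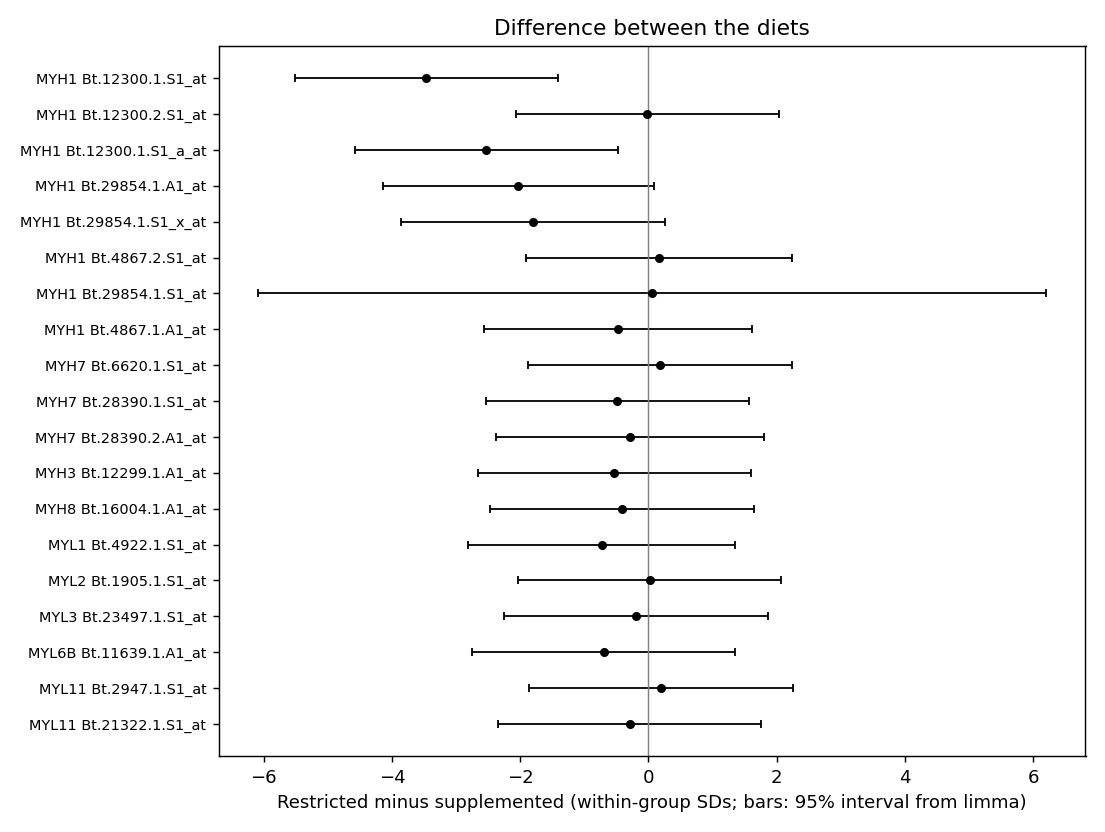
Difference between the diets for each myosin probe set: points give restricted minus supplemented in within-group SDs of that probe set, and bars the 95% interval from limma, with no adjustment for the number of probe sets. The intervals of 2 MYH1 sets, at -3.46 and -2.53 SDs, leave out 0, and all others include it.

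The spread of a probe set over the 6 arrays differed with its level in the deposited table. Between levels of 4 and 5 the median range was 0.26 millionths over 6027 probe sets, between 8 and 10 it was 23.7 over 355, and above 11 it was 2.8 over 27. Of those 27, 6 read myosins. The brightest sets of MYH7 and MYL2 spanned 531.4 and 91.6 millionths, the widest ranges among the 27, while MYL1 spanned 0.51 and the brighter MYL11 set 0.84 millionths. MYL3, at a level between 6 and 8, spanned 27036 millionths and had rank 11 from the widest of all tested probe sets. The step that gave this pattern is not given in the sources used here, so the size of a difference in deposited units is not compared between these genes.

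**Figure D4:**
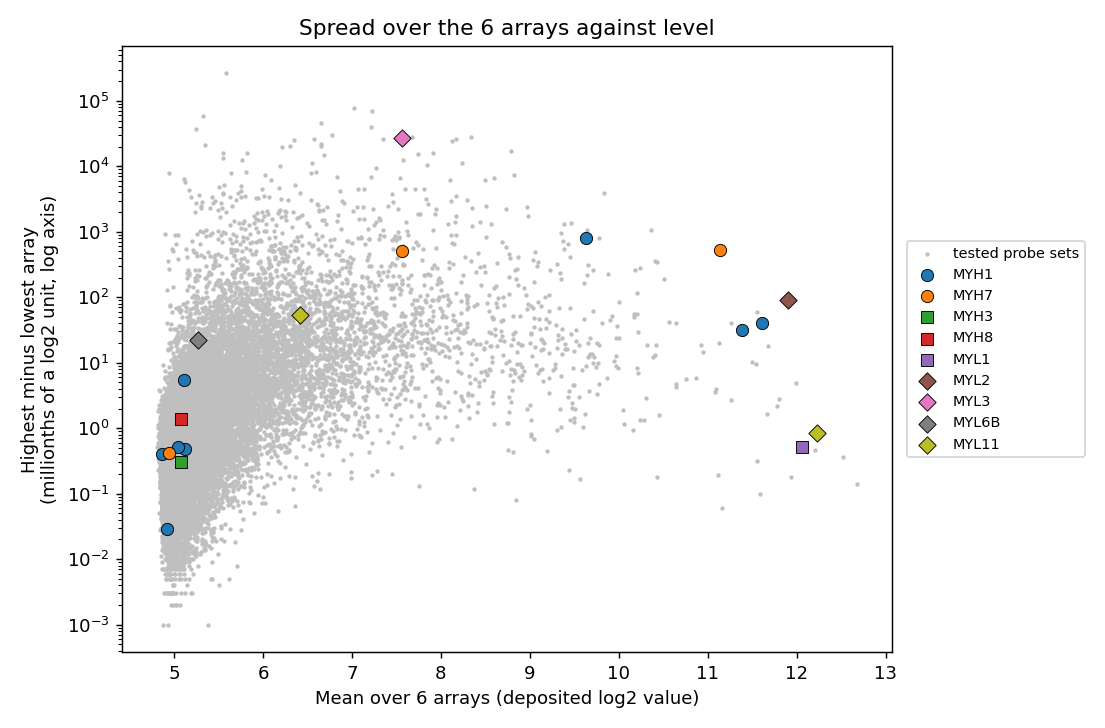
Spread against level: each grey point is a tested probe set, with its mean over the 6 arrays (deposited log2 value) and its highest minus lowest array in millionths of a log2 unit on a log axis. Coloured points are the myosins, and 2 probe sets with a range of 0 are not drawn. MYL3 lies near the top at 27036 millionths, and MYL1 and the brighter MYL11 set lie near the bottom right at 0.51 and 0.84.

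Myosin genes were also compared with each other over the 6 steers, each by its brightest probe set. Of 36 pairs, 21 had a positive and 15 a negative r, and 0 passed an exact permutation test on r adjusted over the 36 (smallest adjusted p = 0.1). MYH7 and MYL2, the heavy chain and the regulatory light chain of slow fibres, had r 0.90 and rho 0.83 (exact permutation p = 0.00972 and 0.0583, adjusted p = 0.175 and 0.525). Both were highest in restricted steer 1 and next highest in supplemented steer 3. Without these 2 steers r was 0.56, so the relation rested largely on them. After each diet's mean was taken off, r was 0.90.

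MYL1 and MYL6B had r 0.98 and rho 0.94 (exact permutation p = 0.00278 and 0.0167, adjusted p = 0.1 and 0.4), and r 0.89 without supplemented steers 1 and 2, the highest and the lowest in both genes. MYL3 and MYL11 ran opposite ways, with r -0.93 and rho -0.89 (exact permutation p = 0.0153 and 0.0333, adjusted p = 0.183 and 0.4), and r -0.86 without restricted steer 3 and supplemented steer 1. MYH1 and MYH7 had r 0.09 and rho -0.14 (exact permutation p = 0.829 and 0.803, adjusted p = 0.933 and 0.919; r 0.29 without restricted steer 2 and supplemented steer 1).

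**Figure D5:**
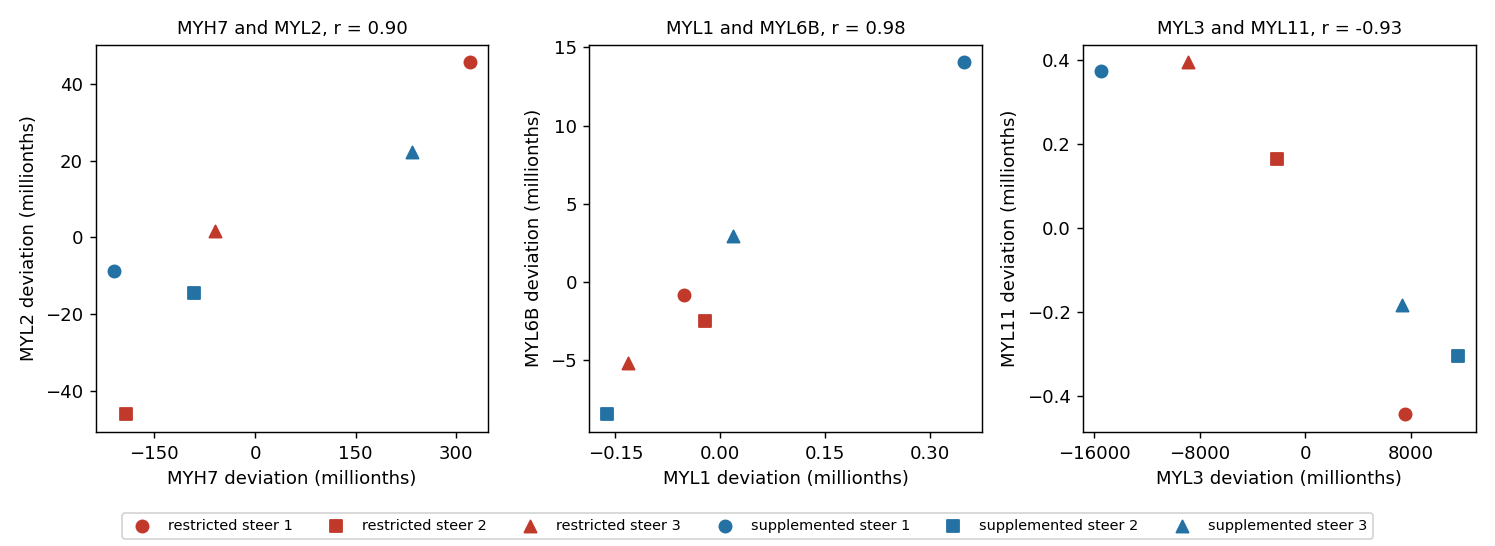
The 3 pairs of myosin genes with the largest absolute r: each point is a steer, with its deviation from the probe set mean in millionths of a deposited log2 unit on both axes, restricted in red and supplemented in blue. MYH7 and MYL2 (r 0.90) and MYL1 and MYL6B (r 0.98) run together, MYL3 and MYL11 (r -0.93) run opposite ways, and the colours mix in all 3 panels.

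Genes outside the family were searched for a like pattern, as a description over 6 steers with no test. For MYH1 the highest r among 9146 genes were those of PMVK (0.99), ESYT2 (0.99) and RAD9B (0.98), and 59 genes exceeded 0.9. For MYH7 they were those of ZNF48, AKR7A2 and HOXB3 (each 0.98), and 91 genes exceeded 0.9. ZNF48 and HOXB3 lay below the median level. How many of 9146 genes would exceed 0.9 over 6 steers without any relation was not determined. Of the slow fibre partners, 6 of 7 had a positive r with MYH7 (median 0.40), from -0.62 for MYBPC1 to 0.94 for the slow troponin TNNT1. Of the fast fibre partners, 5 of 6 had a positive r with MYH1 (median 0.16), the highest being 0.45 for ACTN3. Across fibre types, 4 of 7 slow partners had a positive r with MYH1 (median 0.10), and MYOZ2 (0.82) and myoglobin, MB (0.60), exceeded every fast partner. With MYH7, 2 of 6 fast partners had a positive r (median -0.32).

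No RNA of the fast and slow fibre genes, called partners here, or of the other sarcomere and myosin genes listed passed the adjusted threshold either. Of 11 listed fast fibre genes 6 were measured, 5 lower and 1 higher in restricted steers, with a median difference of -0.43 SDs. Of 10 slow fibre genes 7 were measured, 4 lower and 3 higher (median -0.30 SDs). In both lists limma called 0 genes in either direction at an adjusted p, and 0 at an unadjusted p under 0.05, where 4.08% of all tested probe sets were. Of 13 genes of thick filament and sarcomere structure 8 were measured, 2 lower and 6 higher (median 0.19 SDs). In that list 0 passed the adjusted threshold and 1 the unadjusted one, MYOT, a Z-disc protein, which differed by 11.1 millionths or 3.11 SDs with no overlap (limma unadjusted p = 0.0124). In the list of myosin folding, phosphorylation and breakdown 6 of 11 were measured, 2 lower and 4 higher (median 0.18 SDs). Among myosins of the heart and of cells outside striated muscle 6 of 12 were measured, 4 lower and 2 higher (median -0.20 SDs). Limma called 0 genes of these last lists, also at an unadjusted p under 0.05.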

How the data were processed

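Muscle RNA of 6 steers was measured, 3 per diet, each on 1 array. Per the labels' protocols, total RNA was extracted with Trizol and RNeasy columns, and 100 ng was amplified and labelled for a 3 prime expression array. The authors deposited 1 table of 24128 probe sets. The values the authors deposited, between 4.81 and 12.8, were read as log2 values summarised per probe set. How the background was corrected and how values were normalized and summarized, and the base of the log, is not stated in any source used. An array yields brightness and no molecule number, so precision rests on how many arrays there are.

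After removal of 112 control probe sets, values were multiplied by 1000000000 and analysed by limma 3.58.1 under R 4.3.3 (lmFit, then eBayes, with diet as the only term; 0.483 prior and 4 residual degrees of freedom). P-values were adjusted by the Benjamini-Hochberg method across 24016 probe sets, and 0.05 was the threshold. Symbols came from a platform annotation, which gives 1 symbol to 13318 probe sets, several to 86 and none to 10724. Of the 13292 tested with 1 symbol, 13263 matched a RefSeq record of ARS-UCD2.0 by identifier.

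Every probe set of every member is shown. Other genes are named by rule: up to 3 per pathway list at an unadjusted p under 0.05, the 3 most like the brightest MYH1 and MYH7 sets, DHRS3 and tissue markers. Partners named by their r, and the markers of other cells named with values (CFD, FABP4, CIDEC, MBP, S100B, MYOG, MYF5 and NCAM1), were chosen after their values were seen. Members and lists were chosen with earlier results of these data known. Lists use the probe set with the highest mean per gene. Alternatives were 2 scalings, age as covariate, a replicate block, array weights, a variance trend, a level filter and leaving out each steer. Counting MYL11 as a member was added after seeing the data.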

Additional observations from a re-analysis of the deposited data

How the results depend on the processing

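In each of 13 other fits, and with MYL11 counted as a member, 0 myosin probe sets passed the adjusted threshold. The count over all probe sets was 1 in the fit reported, 35 with quantile normalization, 0 with age as covariate, 0 with the replicate block and 1 to 2 without any 1 steer (2 without supplemented steer 3). The replicate numbers were not taken as pairs in the fit reported. Deviations of same-numbered steers had low correlations of 0.0374, 0.0151 and 0.0152. These still exceeded all correlations between differently numbered steers, which ran from -0.0214 to 0.00610. Age rose with the replicate number in both diets, and whether the numbers mark pairs was not determined. With the replicate block the brightest MYH1 set kept its difference of -26.7 millionths (limma unadjusted p = 0.000838, adjusted p = 0.862). Quantile normalization left 16 of the 19 probe sets shown, the brightest MYH1 set among them, with equal diet means, and 17115 in the whole table. The difference was 0 there and had no direction to compare. Under the level filter 8 sets fell out.

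Left out of the count below were 24 cases, 16 with equal diet means after quantile normalization and 8 under the level filter. The 16 include MYH1 Bt.12300.1.S1_at, Bt.12300.1.S1_a_at and Bt.29854.1.A1_at and MYH8. That fit could not test their differences, as 17115 of the 24016 tested probe sets had equal diet means in it. Of the 223 differences that had a direction, 191 kept it and 32 turned. The 6 of 19 probe sets that turned under none were 4 of MYH1, MYH8 and MYL6B. Their sizes moved: leaving out each steer, MYH8 ran from -0.724 to -0.0237, MYL6B from -11.3 to -0.0517, MYH1 Bt.12300.1.S1_a_at from -547.8 to -326.1, Bt.29854.1.S1_x_at from -3.39 to -1.55 and Bt.29854.1.A1_at from -0.332 to -0.179. Quantile normalization gave -13.0 for Bt.29854.1.S1_x_at and -25.7 for MYL6B, and age as covariate -10.7 for MYL6B. Which probe sets lay under an unadjusted p of 0.05 also changed: Bt.12300.1.S1_a_at left in 3 of 6 such fits, while Bt.29854.1.S1_x_at (without supplemented steer 2, limma unadjusted p = 0.0250), Bt.29854.1.A1_at (without supplemented steer 3, limma unadjusted p = 0.0310) and MYH8 (without supplemented steer 2, limma unadjusted p = 0.0478) came in. Turned values, in millionths, are given with the range over leaving out each steer. With array weights MYH1 Bt.12300.2.S1_at was 0.0695, Bt.4867.2.S1_at -0.00444 and Bt.29854.1.S1_at -0.000471. With age as covariate MYH1 Bt.4867.2.S1_at was -0.150, MYH7 Bt.28390.1.S1_at 119.9 and MYL11 Bt.21322.1.S1_at 4.61. Leaving out each steer, MYH1 Bt.12300.2.S1_at ran from -8.95 to 7.29, Bt.4867.2.S1_at from -0.123 to 0.137, Bt.29854.1.S1_at from -0.00517 to 0.00933 and Bt.4867.1.A1_at from -0.150 to 0.0502. MYH7 Bt.6620.1.S1_at ran from -103.9 to 173.5, Bt.28390.1.S1_at from -229.9 to 26.5 and Bt.28390.2.A1_at from -0.170 to 0.0422. MYH3 ran from -0.141 to 0.0122, MYL1 from -0.252 to 0.00333, MYL2 from -21.9 to 23.9 and MYL3 from -10601 to 2918. MYL11 Bt.2947.1.S1_at ran from -0.102 to 0.318 and Bt.21322.1.S1_at from -16.1 to 7.58. The cause of these turns was not tested.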

Other observations

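Markers of other cells are given here as values. None passed the adjusted threshold, and medians are in within-group SDs, restricted minus supplemented. Over all tested probe sets, 51.7% were lower in restricted steers. Markers of smooth muscle and pericytes were higher in 4 of 4 measured genes (median 1.12), those of endothelium in 3 of 4 (0.44), of macrophages in 2 of 3 (0.26), of red blood cells in 2 of 3 (0.54) and of heart muscle in 3 of 3 (0.62). Only 0 of 3 red blood cell, 1 of 3 heart, 2 of 4 endothelium and 2 of 3 macrophage markers lay above the median level. Fat cell markers were higher in 5 of 5 (0.97), and those of connective tissue in 2 of 5 (-0.04). Of nerve markers 1 of 2 was higher (-1.39), of satellite cells and regenerating fibres 2 of 4 (0.01) and of skeletal muscle fibres 2 of 6 (-0.34). Outside the list of skeletal muscle fibres, 3 markers had a limma unadjusted p under 0.05. They were 1 of 5 measured for fat cells, 1 of 2 for nerve and 1 of 4 for satellite cells and regenerating fibres. Over all tested probe sets, 4.08% had such a p. In each of the 3 the diets did not overlap. Over all tested probe sets, 4.64% were lower and 4.12% higher without overlap. The 3 were the fat cell marker CFD, at 6.35 SDs (limma unadjusted p = 0.000717), the myelin gene MBP, at -3.15 SDs (limma unadjusted p = 0.0119), and the regeneration marker MYOG, at 2.51 SDs (limma unadjusted p = 0.0265). The other measured nerve marker, S100B, went the other way from MBP, at 0.38 SDs. In the list that holds MYOG, 2 of 4 measured genes were higher, MYOG and MYOD1. The other 2, MYF5 and NCAM1, differed by -0.68 and -0.35 SDs. MYH3 and MYH8, the developmental heavy chains, differed by -0.53 and -0.42 SDs. Regeneration was not tested.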
